A study of Mus musculus with 12 samples.

Results

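Keratins are the intermediate filament proteins of epithelial cells, and 6 keratin genes of simple, glandular and basal epithelia were followed here across 3 genotypes of mouse alveolar type 2 cells. They were taken by name, as Krt8, Krt7, Krt18, Krt19, Krt15 and Krt20, from a list of epithelial keratins. All 6 of 6 had values, among 16080 genes measured, of which 22 were keratins. Alveolar epithelial type 2 cells (AEC2), which make and secrete surfactant, came from lungs of female mice (strain Bl6, age P56), and RNA-seq was made of their total RNA. The mice differed at Sftpc, which encodes surfactant protein C (SP-C), and had the genotypes SP-C C185G, the mutant of the BRICHOS domain of the precursor, SP-C C185Gneo, which the series names as its hypomorphic control, and SP-C WT. Each genotype had 4 libraries, and mice of all 3 genotypes, WT included, received tamoxifen at 200 mg/kg intraperitoneally on 2 days and were used on day 7. How tamoxifen switches on the allele is not given in the sources used here. Libraries were grouped by the genotype field of the labels, whereas the titles of the C185Gneo libraries carry the name C185G and those of the C185G libraries another code, so that read by title these groups could be exchanged. Sftpc itself was lowest in the libraries of genotype C185Gneo, the group called hypomorphic. Whether libraries of 1 genotype stem from different mice is not labelled, and p-values therefore cover the spread between libraries, which can be technical alone.

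A keratin filament is built from heterodimers of a type I and a type II chain, and a chain without a partner is degraded. Krt8 and Krt7 are type II keratins, and Krt18, Krt19, Krt15 and Krt20 are type I keratins. Krt8 with Krt18 is the founding pair of simple epithelia, and in the mouse lung a strong Krt8 signal is known from the transitional state that AEC2 pass through after injury on the way to alveolar type 1 cells.

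Type II genes and Krt18 lie in the keratin cluster of chromosome 15, and the other type I genes in that of chromosome 11 (GRCm38). Krt8 (ENSMUSG00000049382, 101996698 to 102004482, minus strand, 9 exons) and its partner gene Krt18 (ENSMUSG00000023043, 102028180 to 102032027, plus strand, 7 exons) are neighbours, 23698 bases apart and transcribed away from each other. Krt7 (ENSMUSG00000023039, 101411043 to 101430313, plus strand, 9 exons) ends 725 bases from Krt87. On chromosome 11, Krt15 (ENSMUSG00000054146, 100131758 to 100135928, minus strand, 8 exons) and Krt19 (ENSMUSG00000020911, 100140810 to 100148665, minus strand, 6 exons) lie 4882 bases apart. Krt20 (ENSMUSG00000035775, 99428403 to 99438150, minus strand, 8 exons) is next to Krt12. The Krt8 locus overlaps the long non-coding RNA Gm36026 and the Krt7 locus the antisense transcript Gm671, neither of which had a value. Since the strand setting of the counting is not given in the sources used here, reads of Krt8 and Krt7 cannot be told apart from reads of these transcripts, and those of Krt8 not from its processed pseudogene Krt8-ps.

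RefSeq start windows (250 bases before to 50 after the start, build GRCm38.p6, written 5′ to 3′ on the strand of the gene) were held for 4 of the 6 genes. All windows held are shown, and none was held for Krt19 and Krt15. Capitals mark matches to a TATA box (TATAAA) or a GC box (GGGCGG) on either strand. The windows are chr15:102004293-102004592 on the minus strand, chr15:101412153-101412452 on the plus strand, chr15:102027966-102028265 on the plus strand and chr11:99438104-99438403 on the minus strand, where the start of Krt20 is not one of a GENCODE transcript.
Krt8: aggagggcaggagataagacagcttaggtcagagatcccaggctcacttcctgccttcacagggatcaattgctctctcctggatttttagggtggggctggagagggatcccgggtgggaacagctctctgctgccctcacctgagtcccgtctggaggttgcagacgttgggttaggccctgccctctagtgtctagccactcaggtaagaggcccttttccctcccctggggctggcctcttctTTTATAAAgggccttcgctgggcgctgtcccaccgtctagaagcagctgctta
Krt7: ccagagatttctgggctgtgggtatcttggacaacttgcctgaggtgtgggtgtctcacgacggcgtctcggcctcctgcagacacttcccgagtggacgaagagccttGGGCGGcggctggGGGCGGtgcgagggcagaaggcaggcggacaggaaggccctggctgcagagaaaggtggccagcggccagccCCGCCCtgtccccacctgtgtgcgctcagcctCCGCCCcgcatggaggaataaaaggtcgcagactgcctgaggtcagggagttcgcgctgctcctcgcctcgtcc
Krt18: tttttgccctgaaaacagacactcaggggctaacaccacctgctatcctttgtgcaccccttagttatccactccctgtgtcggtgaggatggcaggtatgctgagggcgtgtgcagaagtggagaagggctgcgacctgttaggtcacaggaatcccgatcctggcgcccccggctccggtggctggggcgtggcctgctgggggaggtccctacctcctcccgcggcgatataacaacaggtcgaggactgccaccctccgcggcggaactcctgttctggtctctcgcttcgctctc
Krt20: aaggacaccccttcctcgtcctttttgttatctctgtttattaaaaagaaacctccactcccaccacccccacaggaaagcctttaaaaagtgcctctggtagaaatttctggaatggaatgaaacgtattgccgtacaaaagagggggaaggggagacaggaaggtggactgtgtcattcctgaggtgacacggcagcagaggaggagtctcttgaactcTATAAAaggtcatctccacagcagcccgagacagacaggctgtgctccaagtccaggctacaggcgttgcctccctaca
Krt8 held TATAAA at position -1 with an overlapping match of the opposite strand at -3, counted from the RefSeq start, and Krt20 held it at -29. Krt7 held 4 GC boxes, at -141 and -128 on its own strand and at -56 and -24 on the opposite one. Neither motif was found in the window of Krt18, and neither an AP-1 site (TGANTCA) nor a CCAAT box (CCAAT) in any of the 4. Among 32851 RefSeq windows of this length, 13.6% held TATAAA, 35.7% GGGCGG, 7.81% TGANTCA and 37.4% CCAAT on either strand. The GC content was 58% for Krt8, 66.3% for Krt7, 61.3% for Krt18 and 50% for Krt20, against a median of 52.7% over all windows. Such matches describe the letters only.

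The libraries held 15659512 to 20628865 recovered read counts in C185G, 17009457 to 23444287 in C185Gneo and 16328539 to 18234353 in WT. Levels are normalized CPM, which are read counts on the scaling of the authors expressed relative to the mean total of a library (CPM scale), and 1 read was worth 0.0639 CPM in the shallowest library. Sftpc, the edited gene, was at 2833 ± 256 normalized CPM in C185G, 895 ± 143 in C185Gneo and 7467 ± 194 in WT (SD, n = 4 each). Markers of AEC2, 16 of 16 measured, summed to 14167 to 18639 normalized CPM in C185G, 45583 to 50380 in C185Gneo and 40981 to 50162 in WT, and 16 of 16 were called lower in C185G against each other genotype. Sftpb and Sftpa1, which encode surfactant proteins, were the most abundant of them. Over all genes, 27.8% were called lower in C185G against WT and 28.7% against C185Gneo. In these bulk samples, fewer cells of a type and less RNA per cell cannot be told apart. Differences are log2 fold changes from 1 limma fit of all 12 libraries, with a call where the Benjamini-Hochberg adjusted p over all genes was under 0.05.

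In C185G cells, the simple epithelial keratins Krt8, Krt7 and Krt19 were higher than in WT, Krt18 did not pass the test, and the low Krt15 and Krt20 were lower. Krt7 rose most, 1.66-fold, while Krt8 rose 1.26-fold and Krt19 1.25-fold. Against C185Gneo, all of Krt8, Krt7, Krt18 and Krt19 were higher and Krt15 and Krt20 lower. Between the control genotypes, C185Gneo and WT, no keratin of the 6 was called. In C185G against WT, 5 of the 6 were called, 3 higher and 2 lower, where 55% of all measured genes were called, 27.3% higher and 27.8% lower. Scaling by library totals called 5357 genes higher and 3593 lower in C185G against WT, so that 59.9% and not 49.6% of the calls were higher, and Krt18 then passed as well (0.16, limma adjusted p = 0.0346). In C185G against C185Gneo, 6 of 6 were called, 4 higher and 2 lower, where 57.8% of all genes were called, 29.2% higher and 28.7% lower. With changes in so many genes, nothing particular to keratins is read from these counts. The same C185G libraries enter both comparisons.

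**Figure D1:**
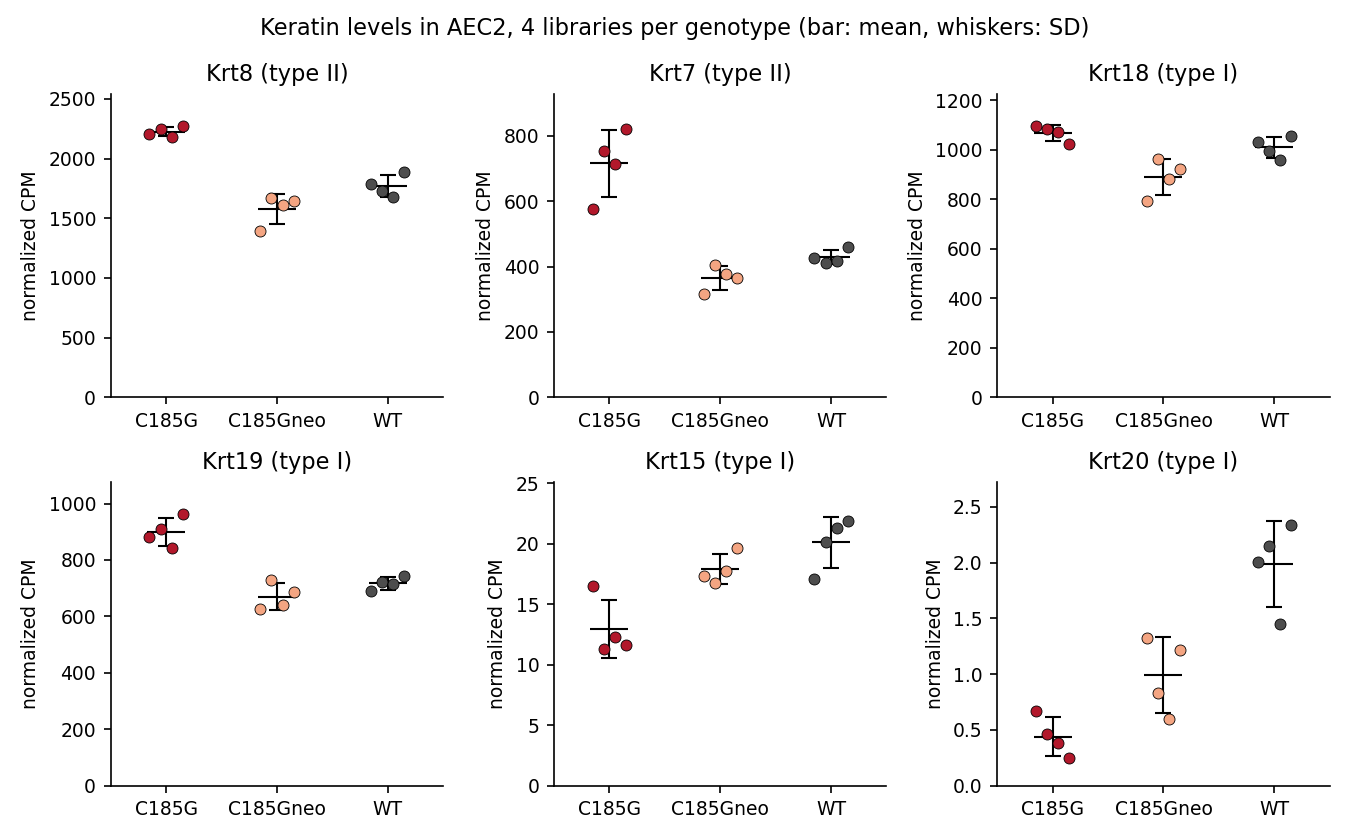
Normalized CPM (y axis, from 0) of the 6 keratins in each library, with C185G left, C185Gneo in the middle and WT right; points are libraries, the long bar is the mean and whiskers are the SD (n = 4). Krt8, Krt7 and Krt19 of the 4 C185G libraries lie above all control libraries, Krt18 overlaps WT, and Krt15 and Krt20 lie below WT.

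Krt8, the type II partner of Krt18, stood at 2202, 2249, 2183 and 2269.8 normalized CPM in the C185G libraries, at 1393, 1672, 1606 and 1646 in C185Gneo and at 1787, 1727, 1675 and 1888 in WT. Every C185G library was above every library of the other genotypes, and the C185Gneo libraries lay just below the WT libraries without overlap. The means were 2226 ± 40.3 in C185G, 1579 ± 127 in C185Gneo and 1769 ± 91.3 in WT. Krt8 was 0.33 higher on the log2 scale in C185G than in WT (SE 0.0634, limma adjusted p = 0.000546) and 0.50 higher than in C185Gneo (adjusted p = 1.64e-05). Quantile normalization gave a larger difference from WT, 0.63.

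Krt7, the second type II keratin, known from ducts, glands and the lung epithelium, was at 576, 754, 713 and 819.9 normalized CPM in C185G, at 316, 403, 378 and 365 in C185Gneo and at 427, 411, 416 and 459.9 in WT. The C185G libraries did not overlap with any control library, and C185G replicate 1 was the lowest of its group. The mean was 716 ± 103 in C185G, 366 ± 36.6 in C185Gneo and 428 ± 22 in WT. The log2 difference was 0.73 for C185G against WT (SE 0.0988, limma adjusted p = 3.36e-05) and 0.96 for C185G against C185Gneo (adjusted p = 2.5e-06), and without C185G replicate 1 these were 0.83 and 1.06.

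Krt18, the type I partner of Krt8, was at 1096, 1082, 1069.8 and 1020.8 normalized CPM in C185G, at 794, 962, 882 and 922 in C185Gneo and at 1032, 995, 957 and 1053 in WT. C185G and WT overlapped, and every C185G library was above every C185Gneo library. The mean was 1067 ± 32.7 in C185G, 890.2 ± 71.8 in C185Gneo and 1009 ± 42.3 in WT. Against WT the log2 difference was 0.08 (95% interval -0.05 to 0.21, limma adjusted p = 0.281), whereas against C185Gneo Krt18 was 0.26 higher (SE 0.0614, adjusted p = 0.0022). The call against WT depended on the scaling, since quantile normalization (0.17, adjusted p = 0.0404) passed the threshold, as library totals did.

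Krt19, the smallest keratin, which lacks most of the tail domain, was at 882, 911, 842 and 962 normalized CPM in C185G, at 625, 728, 639 and 688 in C185Gneo and at 688, 723, 716 and 742 in WT. As with Krt8 and Krt7, no C185G library reached down to a library of another genotype, while C185Gneo and WT overlapped. The mean was 899 ± 50.2 in C185G, 669.8 ± 47.1 in C185Gneo and 717 ± 22.1 in WT. Krt19 was 0.32 higher in C185G than in WT (SE 0.0599, limma adjusted p = 0.000417) and 0.43 higher than in C185Gneo (adjusted p = 3.91e-05).

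Krt15, a keratin of basal cells in stratified and airway epithelia, went the other way from its neighbour Krt19. It was at 16.5, 11.3, 12.3 and 11.6 normalized CPM in C185G, at 17.4, 16.8, 17.7 and 19.7 in C185Gneo and at 17.1, 20.1, 21.3 and 21.9 in WT. C185G replicate 1, the library with the lowest Krt7 of its group, had the highest Krt15, and all 4 C185G libraries were below all control libraries. The mean was 12.9 ± 2.43 in C185G, 17.9 ± 1.26 in C185Gneo and 20.1 ± 2.13 in WT. Krt15 fell by 0.65 on the log2 scale in C185G against WT (SE 0.12, limma adjusted p = 0.000433) and by 0.48 against C185Gneo (adjusted p = 0.00354).

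Krt20, a keratin of intestinal and urothelial cells, was near the detection limit and is best read in counts. The C185G libraries held 13, 10, 7 and 4 counts, the C185Gneo libraries 31, 15, 10 and 21, and the WT libraries 35, 38, 26 and 38. All C185G libraries were below all WT libraries, and C185G overlapped with C185Gneo. The mean was 0.441 ± 0.177 normalized CPM in C185G, 0.993 ± 0.339 in C185Gneo and 1.99 ± 0.384 in WT. Krt20 fell by 2.16 on the log2 scale in C185G against WT (SE 0.318, limma adjusted p = 6.35e-05) and by 1.14 against C185Gneo (adjusted p = 0.00738). The 0.5 added to each count understates such changes, and a minimum mean of 5 normalized CPM leaves Krt20 out.

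**Figure D2:**
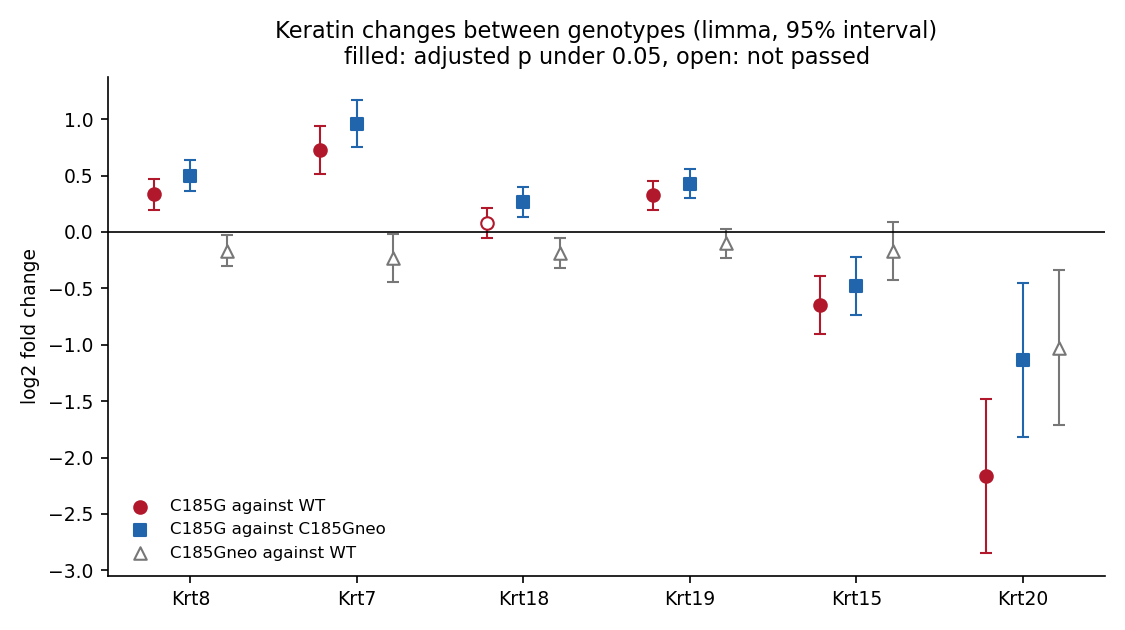
Log2 fold change (y axis) of each keratin in the comparisons C185G against WT (circles), C185G against C185Gneo (squares) and C185Gneo against WT (triangles), with 95% intervals from limma over 12 libraries; filled symbols have an adjusted p under 0.05. Krt8, Krt7 and Krt19 are filled and above 0 in both C185G comparisons, Krt15 and Krt20 filled and below 0, and every triangle is open.

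Counted by overlap, 3 of the 6 keratins lay wholly above and 2 wholly below WT in C185G, where 48.7% of all genes had groups that did not overlap, 25.2% higher and 23.5% lower. Against C185Gneo, 4 lay wholly above and Krt15 wholly below, where the share over all genes was 49.9%, 25.7% higher and 24.2% lower. The median log2 change of the 6 was 0.20 in C185G against WT and 0.35 in C185G against C185Gneo, beside medians over all genes of -0.00044 and 0.0038.

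C185Gneo against WT called 0 of the 6 keratins in limma, where 0.541% of all genes were called, 87 in number. The fitted log2 differences were all below 0, at -0.17 for Krt8, -0.23 for Krt7, -0.18 for Krt18, -0.10 for Krt19, -0.16 for Krt15 and -1.02 for Krt20. Their limma adjusted p-values ran from 0.254 for Krt20 to 0.744 for Krt15, and 4 of the 6 had an unadjusted p under 0.05. The 95% intervals were -0.30 to -0.03 for Krt8 and -0.44 to -0.02 for Krt7. Krt8, Krt7 and Krt20 had groups that did not overlap, 3 of 6 in the lower direction, where 6.86% of all genes did not overlap, 3.57% higher and 3.29% lower. No alternative called any of the 6 in this comparison. The count of 87 rests on single libraries: it was 43, 42 and 44 without C185Gneo replicates 1, 2 and 3, and 40, 45 and 51 without WT replicates 1, 3 and 4.

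Within the control genotypes, C185Gneo replicate 1 stood apart by having the lowest Krt8, Krt7, Krt18 and Krt19 of all 12 libraries. Markers of mesothelial cells, the keratin-rich lining of the lung surface, were also lowest in it. So were, within C185Gneo, the summed markers of mesenchymal (453 normalized CPM), alveolar type 1 (3108), club and goblet (6823) and ciliated cells (2571). Its AEC2 sum, 50380, was the highest of the 12 libraries. The summed level of the 11 of 12 mesothelial markers measured was 765, 986, 889.6 and 719 normalized CPM in the C185G libraries, 103, 410.3, 509 and 839 in the C185Gneo libraries and 509, 588, 594 and 706 in the WT libraries. The sum was thus higher in each C185G library than in each WT library, and lowest in C185Gneo replicate 1. Msln, the mesothelial surface protein mesothelin and the most abundant of the markers, averaged 337 normalized CPM in C185G, 130 in C185Gneo and 164 in WT, and Upk3b, a uroplakin, averaged 143 in C185G, 122 in C185Gneo and 151 in WT. None of the 11 was called in C185G against WT, while 4 of 11 were called higher in C185G against C185Gneo, and no measured marker was at 0 in any library. Over all genes, 55% were called in C185G against WT, and 29.2% were called higher against C185Gneo. The lack of a call is not a lack of difference from WT. Msln was 1.04 higher on the log2 scale (SE 0.511, limma adjusted p = 0.108), and its C185G and WT libraries did not overlap. Those of Upk3b overlapped (-0.10). The SE is shared by the 3 genotypes, and Msln ran from 28.7 to 234 normalized CPM in C185Gneo. Without C185Gneo replicate 1, C185G against C185Gneo gave log2 differences of 0.44 for Krt8, 0.89 for Krt7, 0.21 for Krt18 and 0.39 for Krt19, all still called. C185G replicate 4, with the lowest mesothelial sum of its group, had its highest Krt8, Krt7 and Krt19. The same library had the lowest AEC2 sum of its group (14167) and its highest alveolar type 1 (4028), mesenchymal (1321) and myeloid (299) sums. The part of mesothelial RNA in the keratin levels was not tested.

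**Figure D3:**
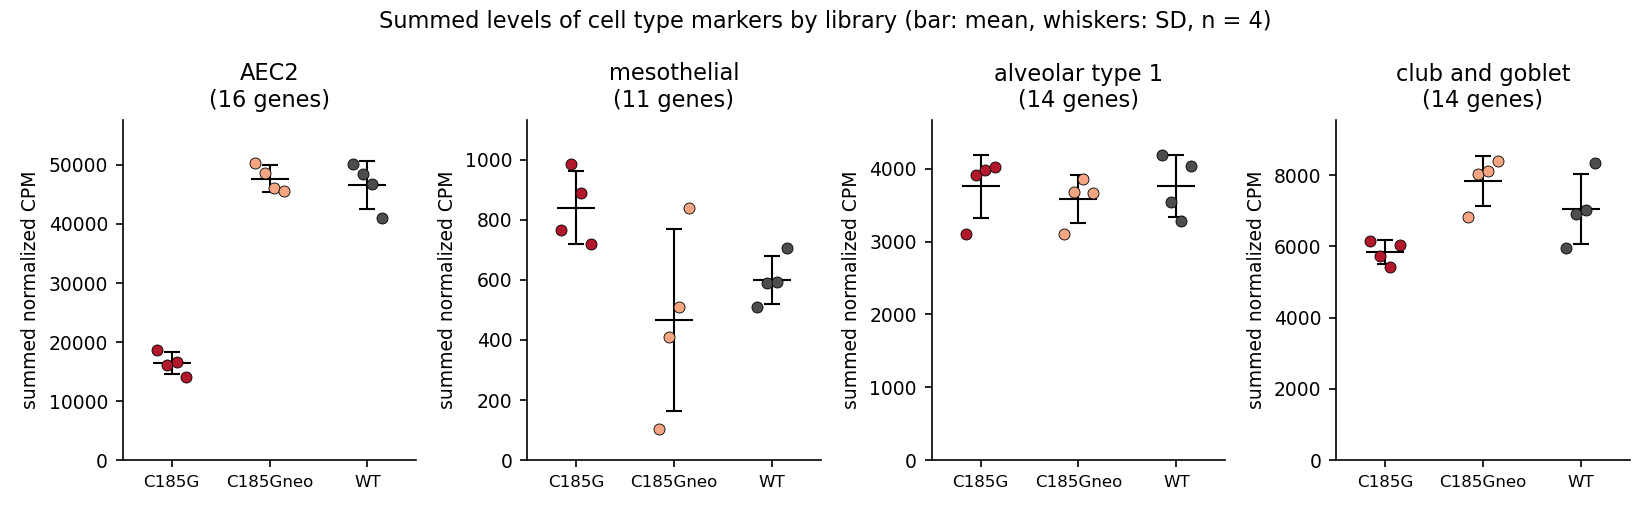
Summed normalized CPM (y axes, from 0) of the measured markers of AEC2, mesothelial, alveolar type 1 and club and goblet cells in each library, C185G left, C185Gneo in the middle and WT right; bars are means and whiskers SDs (n = 4). The AEC2 sum of all 4 C185G libraries lies between 14167 and 18639 and that of all control libraries at 40981 or more, and 1 C185Gneo library has a mesothelial sum of 103.

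Markers of alveolar type 1 cells, which also express simple epithelial keratins, summed to 3108 to 4028 normalized CPM in C185G, 3108 to 3862 in C185Gneo and 3277 to 4190.3 in WT, so that these groups overlapped. Of the 14 type 1 markers, 3 were called higher and 2 lower in C185G against each of the other genotypes, where 55% of all genes were called against WT and 57.8% against C185Gneo. Ager, the most abundant, averaged 725 normalized CPM in C185G, 933 in C185Gneo and 908 in WT, and Cldn18 averaged 596 in C185G, 638 in C185Gneo and 653 in WT. The type 1 markers called higher, named here after their values were seen, were Pdpn (log2 difference from WT 1.35, limma adjusted p = 0.00722), Clic5 (0.59, adjusted p = 0.0342) and Emp2 (0.40, adjusted p = 0.00885), and those called lower were Ager (-0.32) and Vegfa (-0.67). Club and goblet cell markers summed to 5436 to 6157 in C185G, 6823 to 8391 in C185Gneo and 5962 to 8342 in WT, led by Scgb1a1 and Cyp2f2, and of 14 markers 1 was called higher and 5 lower in C185G against WT and 1 higher and 10 lower against C185Gneo. Mesenchymal markers summed to 1018 to 1321 in C185G, 453 to 833 in C185Gneo and 759 to 1003 in WT, led by Npnt and Col3a1, and of 14 markers 2 were called higher and 1 lower in C185G against WT and 9 higher and 0 lower against C185Gneo. Of the airway basal markers only 5 of 10 had values, and the defining Trp63 and Krt5 were not among them. The basal sum, led by Icam1 and Aqp3, was 1086 to 1239 in C185G, 877 to 1041 in C185Gneo and 957 to 1049.5 in WT, nearly all of it Icam1. What these other cells add to the keratin levels was not tested.

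Compared per kilobase of the principal transcript, the order of the keratins was the same in 12 of 12 libraries, Krt8, Krt18, Krt19, Krt7, Krt15 and Krt20. In C185G they stood at 1137, 743, 571, 175, 7.61 and 0.229 normalized CPM per kilobase, in C185Gneo at 807, 619, 425, 89.4, 10.5 and 0.515 and in WT at 904, 702, 455, 105, 11.8 and 1.03. The sum of the 6 was 2575 to 2687 normalized CPM per kilobase in C185G, 1749 to 2094 in C185Gneo and 2091 to 2294 in WT. Type II chains over type I chains came to 0.949 to 1.02 in C185G, 0.822 to 0.886 in C185Gneo and 0.843 to 0.884 in WT on that scale. Krt7 made up 5.41 to 7.45% of the per-kilobase sum in C185G, 4.42 to 4.75% in C185Gneo and 4.67 to 4.90% in WT, and Krt18 made up 26.4 to 29.4% in C185G, 31.6 to 32.0% in C185Gneo and 31.9 to 32.9% in WT. As shares of all counts, the 6 keratins took 0.489 to 0.527% in C185G, 0.314 to 0.376% in C185Gneo and 0.373 to 0.414% in WT.

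Ratios within a library, which no scaling touches, set the keratins against each other. They were chosen with earlier results of these data known, and each log2 difference is the difference of 2 keratin changes given above, so the p-values below describe these libraries and are no independent evidence that the keratins moved unequally. The ratio of Krt8 to Krt18 counts was 2.01, 2.08, 2.04 and 2.22 in the C185G libraries, 1.75, 1.74, 1.82 and 1.79 in C185Gneo and 1.73, 1.73, 1.75 and 1.79 in WT. It was 0.25 higher on the log2 scale in C185G than in WT and 0.23 higher than in C185Gneo, in 4 of 4 libraries each. The ratio of Krt7 to Krt8 was 0.321 ± 0.0425 in C185G, 0.231 ± 0.00863 in C185Gneo and 0.242 ± 0.00486 in WT (SD, n = 4 each), with log2 differences of 0.40 against WT and 0.46 against C185Gneo. The ratio of Krt19 to Krt18 was 0.844 ± 0.0692 in C185G, 0.753 ± 0.0260 in C185Gneo and 0.712 ± 0.0346 in WT, with log2 differences of 0.24 against WT and 0.16 against C185Gneo. All 6 of these C185G differences had a two-sided exact permutation p of 0.0286, the smallest that 4 against 4 libraries allow, and 0.0429 after Benjamini-Hochberg adjustment over the 9 ratio tests. C185Gneo against WT gave exact permutation p-values of 0.371 for Krt8 to Krt18 (0.02, adjusted 0.371), 0.0857 for Krt7 to Krt8 (-0.07, adjusted 0.11) and 0.143 for Krt19 to Krt18 (0.08, adjusted 0.161). The 6 C185G calls were each lost without C185G replicate 4 or without any 1 library of the other genotype compared, with exact permutation adjusted p-values of 0.0514 to 0.129, and no direction changed. Leaving out 1 library cannot end the separation of the groups, and it leaves the exact test fewer splits. These losses therefore do not show that a ratio rests on 1 library. Without C185G replicate 4 the Krt19 to Krt18 difference from C185Gneo was 0.11.

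**Figure D4:**
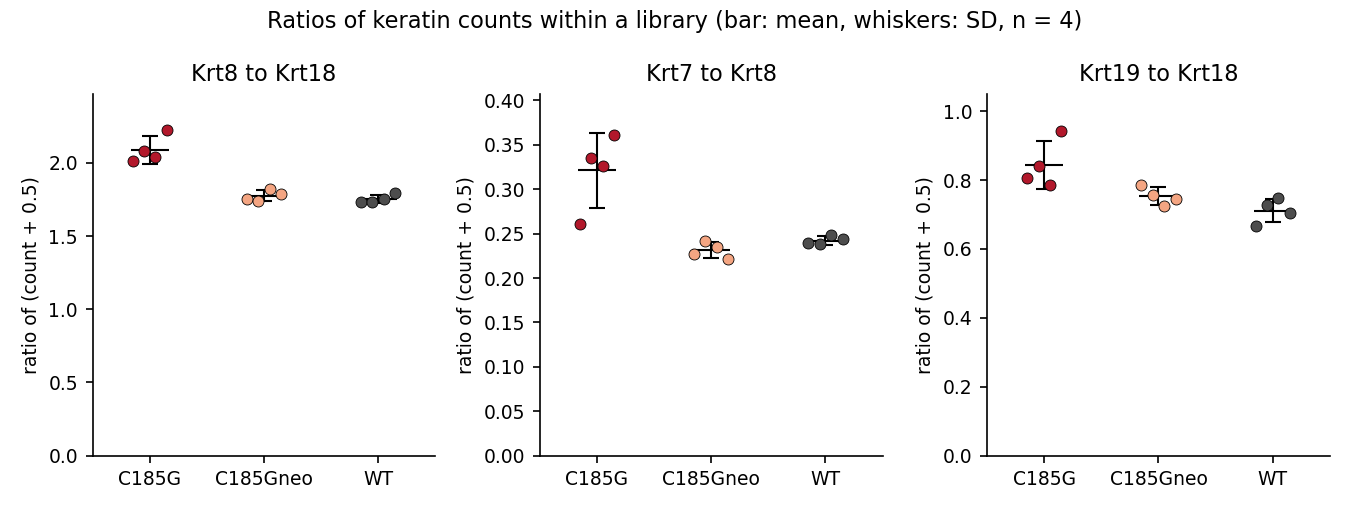
Ratio of counts (y axes, from 0) of Krt8 to Krt18, Krt7 to Krt8 and Krt19 to Krt18 in each library, C185G left, C185Gneo in the middle and WT right; points are libraries, bars are means and whiskers SDs (n = 4). All 3 ratios are higher in the 4 C185G libraries than in any library of the other genotypes.

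After the group means were taken out, Krt8 and Krt18 were the pair that varied together most across the 12 libraries (r = 0.863), followed by Krt7 with Krt8 (0.653), Krt8 with Krt19 (0.648) and Krt7 with Krt19 (0.612). Krt7 ran opposite to Krt20 (-0.668) and Krt15 (-0.586) in the same sense. These are descriptions with no test, over libraries whose keratins share 1 scaling and which differ within groups in AEC2, mesothelial, alveolar type 1 and other marker sums. The r of Krt8 with Krt18 pools the genotypes and does not describe the C185G libraries taken alone. Among these, replicate 4 had the highest Krt8 (2269.8 normalized CPM) and the lowest Krt18 (1020.8). C185Gneo replicate 1 was the lowest of the 12 libraries in both genes (1393 and 794), and its part in the r was not tested. C185G replicate 1, with the lowest Krt7 of its group, had its highest AEC2 sum (18639) and lowest alveolar type 1 sum (3108).

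Beyond the 6, 16 other keratins had values, 15 of them with a mean of at least 1 normalized CPM. In C185G against WT, Krt17 alone was higher and 7 were lower, which were Krt23, Krt80, Krt79, Krt10, Krt81, Krt31 and Krt4, and 8 did not pass, against the 55% of all genes called. In C185G against C185Gneo, Krt17 and Krt14 were higher, Krt23, Krt80 and Krt31 lower, and 11 did not pass. In C185Gneo against WT limma called 0 of 16, with 4 at an unadjusted p under 0.05. The median log2 change of the 16 was -0.40 in C185G against WT, -0.03 in C185G against C185Gneo and -0.22 in C185Gneo against WT.

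Krt17, a type I keratin induced in injured and stressed epithelia and also a basal cell keratin, had the largest change among the 22 measured keratins. Its counts were 57, 114, 87 and 79 in the C185G libraries, 14, 7, 5 and 5 in C185Gneo and 4, 5, 4 and 1 in WT. No C185G library overlapped with another genotype. Krt17 averaged 4.46 ± 1.05 normalized CPM in C185G, 0.394 ± 0.144 in C185Gneo and 0.199 ± 0.0955 in WT, and was 4.40 higher on the log2 scale in C185G than in WT (limma adjusted p = 4.8e-07) and 3.43 higher than in C185Gneo (adjusted p = 4.2e-06). Krt14, the type I keratin of basal cells, held 63, 85, 28 and 27 counts in C185G, 5, 10, 15 and 47 in C185Gneo and 18, 15, 16 and 14 in WT. C185Gneo replicate 4, at 47 counts, lay within the C185G range. Its log2 difference was 1.37 against WT (limma adjusted p = 0.0649) and 1.65 against C185Gneo (adjusted p = 0.0291). The call against C185Gneo was lost without C185G replicate 1 or 2 and without C185Gneo replicate 1 or 2 (limma adjusted p = 0.0652 to 0.0782), and with only the 8 libraries compared (0.0727), and the difference ran from 1.09 without C185Gneo replicate 1 to 2.27 without C185Gneo replicate 4. The difference from WT passed with quantile normalization (0.0313), with only the 8 libraries compared (0.00276) and with voom weights (0.0435).

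Krt23, a type I keratin of simple epithelia and the most abundant per kilobase of those other keratins that fell, averaged 84.9 ± 8.41 normalized CPM in C185G, 194 ± 9.08 in C185Gneo and 186 ± 18.6 in WT. It fell by 1.13 on the log2 scale in C185G against WT (limma adjusted p = 8.06e-08) and by 1.20 against C185Gneo (adjusted p = 3.7e-08). Krt80, a type II keratin, averaged 124 ± 15.6 in C185G, 166 ± 12 in C185Gneo and 165 ± 13.2 in WT, and fell by 0.41 against WT (adjusted p = 0.00121) and by 0.42 against C185Gneo (adjusted p = 0.000911). The other keratins lower in C185G than in WT were rare, at means of 0.75 to 2.52 normalized CPM in C185G and 1.29 to 4.15 in WT, with log2 differences from -0.61 for Krt31 to -0.99 for Krt79 and adjusted p-values of 0.0135 to 0.0472. Of these 5, Krt79 kept its call in 15 of 15 alternatives, and those of Krt4, Krt10, Krt31 and Krt81 were lost in 7 to 9 of 15. C185G and WT libraries overlapped for all 5. Krt79 and Krt4 were as low in C185Gneo (1.05 and 2.30) as in C185G (1.29 and 2.52), with log2 differences between these genotypes of 0.14 and -0.01. Krt10, Krt31 and Krt81 averaged 3.42, 1.81 and 1.05 in C185Gneo. The call of Krt31 against C185Gneo (-0.59, adjusted p = 0.0487) was lost in 9 of 15. The type II keratins Krt78 and Krt87, whose loci lie beside Krt8 and Krt7, averaged 17.8 and 38.5 normalized CPM in C185G, 14.4 and 38.3 in C185Gneo and 22 and 42.6 in WT, with log2 differences from WT of -0.39 and -0.15 (adjusted p = 0.25 and 0.309), and Krt78 passed without C185G replicate 1 (-0.67, adjusted p = 0.0145). Krt1, Krt13, Krt36 and Krt88 had log2 differences from WT of -0.48, -0.24, -0.03 and -0.33 without passing the test, and the sign for Krt36 turned under library totals (0.05) and quantile normalization (0.01).

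**Figure D5:**
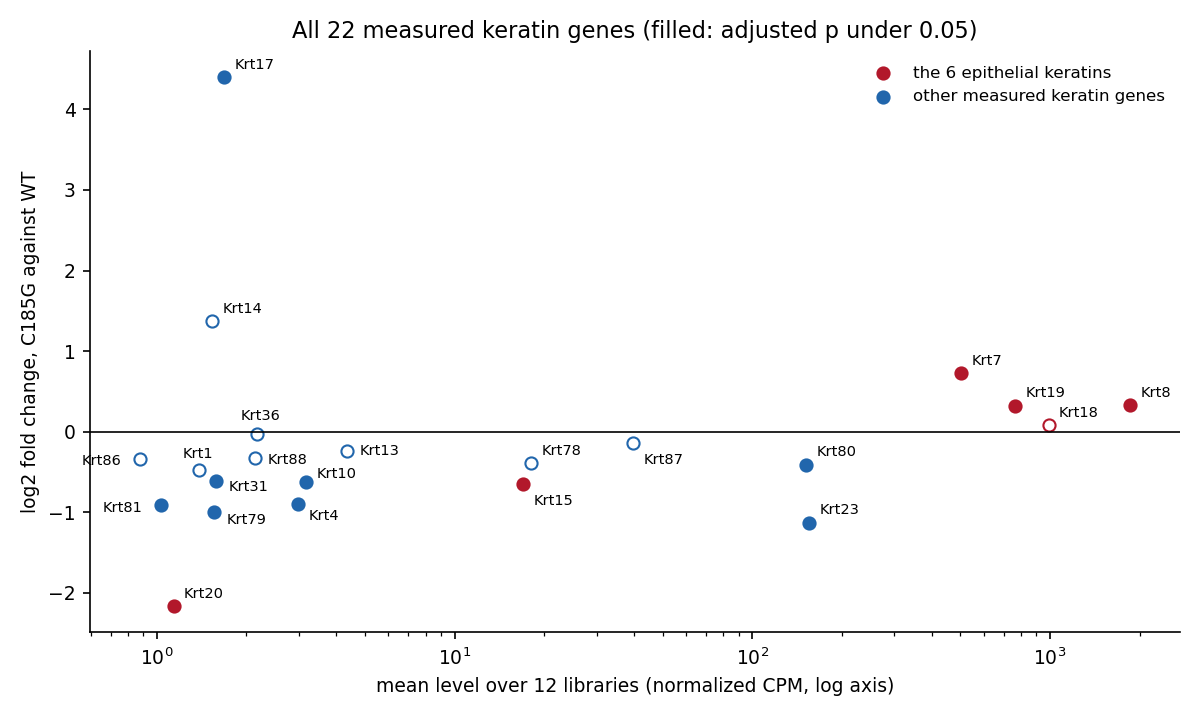
Log2 fold change of C185G against WT (y axis) against the mean level over 12 libraries in normalized CPM (x axis, log scale) for the 22 measured keratin genes, the 6 in red and the others in blue, filled at a limma adjusted p under 0.05. Krt17 stands at 4.40, the abundant Krt7, Krt19 and Krt8 lie above 0, and most low keratins lie below 0.

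Genes that work with keratins were counted in 4 lists. Over all genes, 55% were called in C185G against WT (27.3% higher, 27.8% lower) and 57.8% in C185G against C185Gneo (29.2% higher, 28.7% lower), and nothing particular to a list is read from its counts. The first list holds genes that anchor or tie keratin filaments. Of 17 measured linker genes, 6 were higher and 2 lower in C185G against WT, and 7 higher and 2 lower in C185G against C185Gneo, so that 8 and 9 of 17 were called, with a median log2 change of 0.12 against WT. Fam83h, which organises keratin filaments, averaged 182 ± 15.1 normalized CPM in C185G, 82.0 ± 5.91 in C185Gneo and 84.2 ± 1.71 in WT (log2 difference from WT 1.11, limma adjusted p = 1.73e-08). Pkp3, a plakophilin of the desmosome, averaged 112 ± 12.2 in C185G, 47.7 ± 4.55 in C185Gneo and 49.5 ± 3.19 in WT (1.18, adjusted p = 9.8e-08), and Pkp4, a related armadillo protein, averaged 87.3 ± 7.96 in C185G, 156 ± 6.11 in C185Gneo and 171 ± 4.71 in WT and fell by 0.97 against WT. Itga6, an integrin chain of hemidesmosomes, was 0.48 higher in C185G than in WT (adjusted p = 4.3e-05).

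Of 18 chaperones, kinases and turnover factors of keratins, 9 were higher and 2 lower in C185G against WT, and 8 higher and 2 lower against C185Gneo, where 55% and 57.8% of all genes were called, with a median log2 change of 0.18 against WT. Sfn, the epithelial 14-3-3 protein, averaged 699 ± 28.9 normalized CPM in C185G, 331 ± 33.6 in C185Gneo and 347 ± 14.8 in WT (log2 difference from WT 1.01, limma adjusted p = 4.35e-08). Sqstm1, the ubiquitin-binding autophagy receptor found in keratin aggregates, averaged 2882 ± 275 in C185G, 1470.0 ± 196 in C185Gneo and 1637 ± 132 in WT (0.81, adjusted p = 8.61e-06, and 1.35 with quantile normalization). Dnajb6, a cochaperone that binds Krt18, was 0.50 higher in C185G than in WT (adjusted p = 3.31e-06), and Prkce, a kinase of Krt8 and Krt18, fell by 0.70 (adjusted p = 3.61e-06).

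Among 11 other intermediate filament and lamin genes, 1 was higher and 2 lower in C185G against WT, and 3 higher and 2 lower against C185Gneo, where 55% and 57.8% of all genes were called, with a median of -0.11 against WT. Synm (synemin) averaged 10.6 ± 2.41 normalized CPM in C185G, 26.9 ± 2.71 in C185Gneo and 25.0 ± 3.86 in WT and fell by 1.24 against WT (limma adjusted p = 9.18e-06). Bfsp1, a lens filament gene, fell by 1.51 (adjusted p = 8.63e-05). Vim, the vimentin of mesenchymal and mesothelial cells, averaged 274 ± 15.7 in C185G, 109 ± 47.2 in C185Gneo and 158 ± 19.1 in WT (0.81, adjusted p = 0.0409). Its call was lost without any 1 of the 8 libraries compared (adjusted p = 0.0585 to 0.0971), in fits that kept the widely spread C185Gneo libraries. It was kept in the other 8 of 16 alternatives, among them the fit of only the 8 libraries compared, with limma adjusted p-values down to 2.27e-05. Lmna, the A-type lamin, had a log2 difference of 0.29 from WT (adjusted p = 0.0556) and passed under 4 of 16 alternatives.

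Of 17 transcription factors of epithelia, 3 were higher and 8 lower in C185G against WT, and 4 higher and 9 lower against C185Gneo, where 55% and 57.8% of all genes were called, with a median of -0.18 against WT. Elf3 averaged 81.5 ± 11 normalized CPM in C185G, 156 ± 9.64 in C185Gneo and 161 ± 15.8 in WT and fell by 0.99 against WT (limma adjusted p = 8.91e-07). Grhl2, which maintains epithelial gene expression, fell by 0.68 (adjusted p = 5.51e-06). The AP-1 subunits differed in direction, with Fosl1 0.52 higher (adjusted p = 3.56e-05) and Jun 0.48 lower in C185G than in WT (adjusted p = 3.44e-05), where Jun lost its call with quantile normalization (-0.19, adjusted p = 0.0862).

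Among 11190 protein-coding genes with a mean of at least 5 normalized CPM, those whose log2 levels were most like a keratin over the 12 libraries were named by Pearson r, 3 for each. They were Anxa2, Map4 and Naa15 for Krt8 (r of 0.979, 0.979 and 0.978), Fstl3, Zscan25 and Cnot11 for Krt7 (0.989, 0.987 and 0.985), and Cplx2, Kctd5 and Prss22 for Krt19 (0.983, 0.975 and 0.968). Krt18 was matched less closely, by Parp8, Arhgdib and Otud7b (0.944, 0.935 and 0.933), and Krt15 by Mmaa, Taf4 and Rbm6 (0.964, 0.963 and 0.956). The 12 libraries fall into 3 genotypes, which these genes share, and after group means were taken out the values ran from 0.768 for Prss22 to 0.934 for Map4. These likenesses carry no test.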

How the data were processed

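Groups followed the genotype field of the labels. Per the submitters' processing notes, STAR, limma and mm10 were used; their versions and the counting, annotation and strand setting are not stated there. Deposited values are log2: as their spacing shows, the authors added 0.5 to each whole count, multiplied the sum by a factor of the library and took the log2. All values (100%) came out whole within 1e-06, and scaled totals differed at most 1.08 times between libraries. GENCODE M21 (GRCm38) named 16017 identifiers and left 63 without a symbol. The limma 3.58.1 fit (R 4.3.3, lmFit, eBayes with trend and robust) had 1 coefficient per genotype and no block. The fit was tested on simulated data. Ratios were tested by exact permutation (scipy 1.17.1). Members, lists and ratios were chosen with earlier results of these data known. Named genes were the 6 keratins, other keratins, up to 4 genes per keratin list with the smallest p in C185G against WT, the 3 genes most like each keratin, and the 2 most abundant markers per cell type. Alternatives were other scalings, a filter at 5 normalized CPM, fewer libraries, voom weights, the replicate number as a block and each library left out. For genes other than the 6, they were added after the data were seen. No pair of same-group libraries was a duplicate within counting noise, so each was counted once, which does not show that they came from separate mice. Depth was 15659512 to 23444287 counts, and low counts limit precision for Krt20, Krt17 and Krt14.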

Additional observations from a re-analysis of the deposited data

How the results depend on the processing

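Over the alternatives run, 283 of 285 values of the 6 keratins kept their direction and their side of the threshold, the exceptions being Krt18 in C185G against WT with quantile normalization and library totals. Of 561 values of the other named genes, 492 did so, 56 no longer passed, 9 newly passed and 4 changed sign, all for Krt36 in C185G against WT (-0.03 at first, 0.04753 with library totals, 0.01099 with quantile normalization, and up to 0.06095 without WT replicate 1 and 0.01238 without WT replicate 2, over a leave-one-out range of -0.122 to 0.06095). For these the cause was not tested. With the filter at 5 normalized CPM, 4 of the 5 keratins left were called in C185G against WT and 5 of 5 in C185G against C185Gneo. The same filter left 7172 and 7459 calls over all genes, from fewer tested genes than the 16080 of the main fit. These numbers are therefore not shares to set beside the main ones, and nothing particular to keratins is read from these counts. Genes called in C185Gneo against WT numbered 40 to 81 with each library left out, and the share of calls that were higher was 46.0% at first, 54.0% with only the 8 libraries compared, 54.7% with voom weights and 57.1% with the block. With library totals, 58.1% of the calls in C185G against C185Gneo were higher, against 50.5% at first.

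Same-numbered libraries deviated together with correlations of -0.30 to 0.25 (3 of 12 over 0.1), and 5 of 12 libraries correlated best with their own number. These values carry no test, and whether same-numbered libraries share a litter, batch or day is not labelled. With the replicate number as a block, 8670 genes in place of 8852 were called in C185G against WT, 9112 in place of 9298 in C185G against C185Gneo and 63 in place of 87 in C185Gneo against WT. The block changed no call of the 6 keratins, and among the other named genes it ended that of Krt14 in C185G against C185Gneo (limma adjusted p = 0.052). For the ratios, the block left log2 differences of 0.2516, 0.3970 and 0.2439 in C185G against WT and 0.2336, 0.4634 and 0.1611 in C185G against C185Gneo (Krt8 to Krt18, Krt7 to Krt8, Krt19 to Krt18), but its exact sign-flip test cannot go below p = 0.125 (adjusted 0.188). With each library left out, these differences ran from 0.2209 to 0.2696, 0.3371 to 0.4927 and 0.1899 to 0.2763 against WT, and from 0.2029 to 0.2516, 0.4035 to 0.5591 and 0.107 to 0.1934 against C185Gneo.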

Other observations

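The remaining cell type lists, whose genes are not keratins, were as follows in summed normalized CPM. Ciliated cell markers, 14 of 14 measured and led by Sec14l3 and Tppp3, summed to 2097 to 2912 in C185G, 2571 to 3281 in C185Gneo and 2762 to 3955 in WT, with 1 called higher and 7 lower in C185G against WT. Over all genes, 27.3% were called higher and 27.8% lower in that comparison. Endothelial markers, 15 of 17 measured and led by Esam and Kdr, summed to 283 to 316 in C185G, 307 to 398 in C185Gneo and 318 to 396 in WT. Myeloid markers, 12 of 17 measured and led by Cd14 and Cd68, summed to 232 to 299 in C185G, 162 to 208 in C185Gneo and 207 to 247 in WT, and 1 of them was at 0 in a library. Lymphoid markers, 2 of 11 measured (Cd79a and Cd4), summed to 3.22 to 5.82 in C185G, 3.06 to 4.76 in C185Gneo and 4.13 to 5.89 in WT. Neuroendocrine markers, 7 of 10 measured, summed to 114 to 128 in C185G, 16.4 to 20.1 in C185Gneo and 15.6 to 18.6 in WT. Of these 7, 2 were called higher and 2 lower in C185G against each other genotype. Their median log2 change was -0.30 against WT and 0.05 against C185Gneo, where 55% and 57.8% of all genes were called. Most of the C185G sum was 1 gene, Uchl1. Most abundant over the 12 libraries were Uchl1, a ubiquitin hydrolase, which averaged 104 in C185G, 5.66 in C185Gneo and 5.84 in WT, and Calca, which averaged 9.01 in C185G, 3.44 in C185Gneo and 2.65 in WT.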
